A study of Drosophila melanogaster with 3 samples.

Results

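The genes described here encode the subunits of the proteasome. They are the 32 protein-coding genes, of 13945 on the arms used (2L, 2R, 3L, 3R, 4 and X), whose symbol is Prosalpha, Prosbeta, Rpn or Rpt followed by digits alone. The rule uses the names alone. Binding was measured by chromatin immunoprecipitation sequencing (ChIP-seq) in whole Drosophila melanogaster embryos of 0 to 16 h, with males and females pooled, in 3 biological replicates of 1 group. All embryos carried the same stable transgene, Deadpan (Dpn) with GFP at its C-terminus, and chromatin sheared to 200 to 800 bp was precipitated with an antibody against GFP. Dpn represses transcription, binds DNA through a basic helix-loop-helix domain and is known from neural stem cells, so a whole embryo mixes cells known to make it with many that are not. Which promoter drives the transgene is not stated in the labels. No untagged line or control library was analysed here, and no groups were compared.

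The proteasome degrades proteins that carry ubiquitin. Its core particle is a barrel of alpha rings, which gate the entrance, and beta rings, some of whose subunits cut the substrate. The regulatory particle caps the barrel: its base holds the Rpt ATPases, which unfold substrates, and its lid removes ubiquitin. Nearly every cell needs the complex, and its genes are commonly counted among the housekeeping genes. In flies the transcription factor Cnc with the small Maf protein maf-S is known to raise their expression under stress.

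Proteasome subunit genes often had a Dpn-GFP summit at their start, mostly of middle or low rank. Of the 32 genes, 15 (46.9%) had at least 1 summit, the highest point of a peak, of the authors' thresholded set of 6253 peaks within 1 kb of an annotated start site. Among all 13945 protein-coding genes the share was 31.3% (4369 genes). The relaxed list called on the pooled replicates, which keeps weak peaks and background on purpose, reached 28 members (87.5%), beside 60.5% of all genes. The counts are descriptions of a list of genes, and no test was made of their excess. Across the 3 replicates, the relaxed lists reached 30 members in replicate 1 (62.2% of all genes), 26 in replicate 2 (51.4%) and 30 in replicate 3 (61.8%), and 25 members (78.1%) were reached in all 3, beside 43.9% of all genes. When each replicate list was limited to its first 6253 peaks, 10 members (31.2%) were reached in all 3, beside 23.3% of all genes.

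The members were spread unevenly over the pooled list, which is ranked by the authors' peak signal. None had a summit among the first 500 pooled peaks, which reached 3.83% of all genes. Among the first 1000 there were 2 members (6.25%, beside 7.27% of all genes), and among the first 2000 there were 4 (12.5%, beside 12.9%). Members and genes at large were thus alike at the top, and the members pulled ahead farther down. At rank 10000 the list reached 25 members (78.1%) and 41.2% of all genes. The band just below the authors' threshold, ranks 6254 to 7500, held the best summit of 7 members (21.9%) and of 3.89% of all genes. The end of that band was set after the members' ranks were seen.

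**Figure D1:**
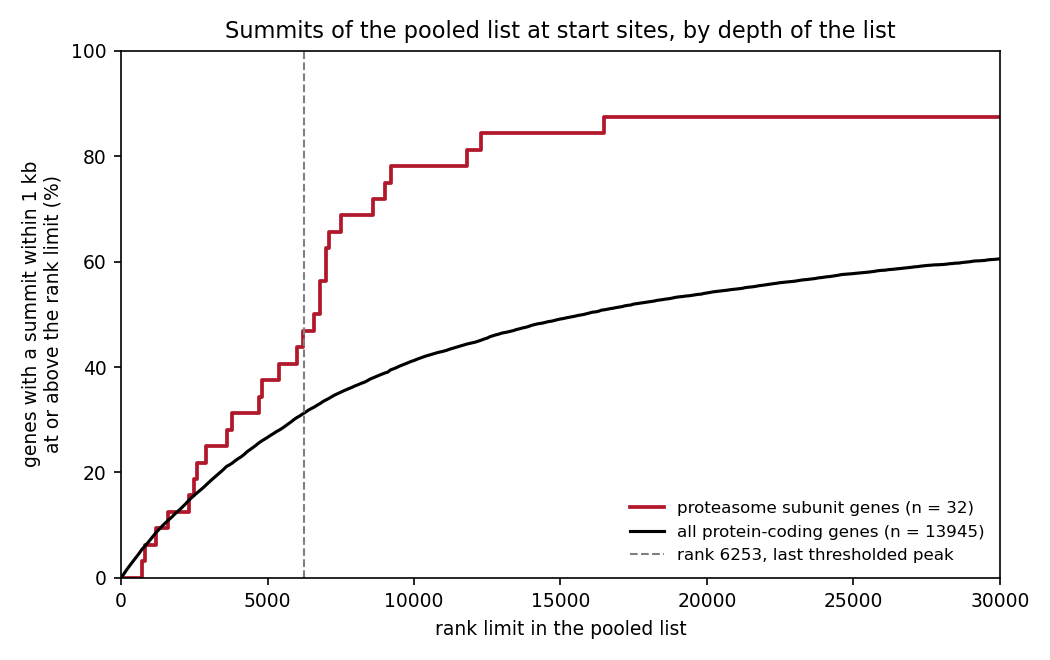
Share of genes (%) whose best summit within 1 kb of a start site lies at or above a rank limit in the pooled list, for the 32 proteasome subunit genes (red) and all 13945 protein-coding genes (black). The lines run together over the strongest peaks, and at the last thresholded rank, 6253, they stand at 46.9% and 31.3%.

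The lid held most of the strong summits. It had a thresholded summit at 7 of its 8 genes (87.5%), the base at 4 of 10, the alpha ring at 3 of 7 (42.9%) and the beta ring at 1 of 7 (14.3%), beside 31.3% of all genes. By family name, 10 of 12 Rpn genes had one and 1 of 6 Rpt genes. In the pooled list the lid, base, alpha ring and beta ring had a summit at 8 of 8, 9 of 10, 5 of 7 and 6 of 7 genes, beside 60.5% of all genes. The groups therefore differed in where their peaks fell relative to the threshold more than in whether a peak was listed at all. The differences between these small groups were not tested.

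**Figure D2:**
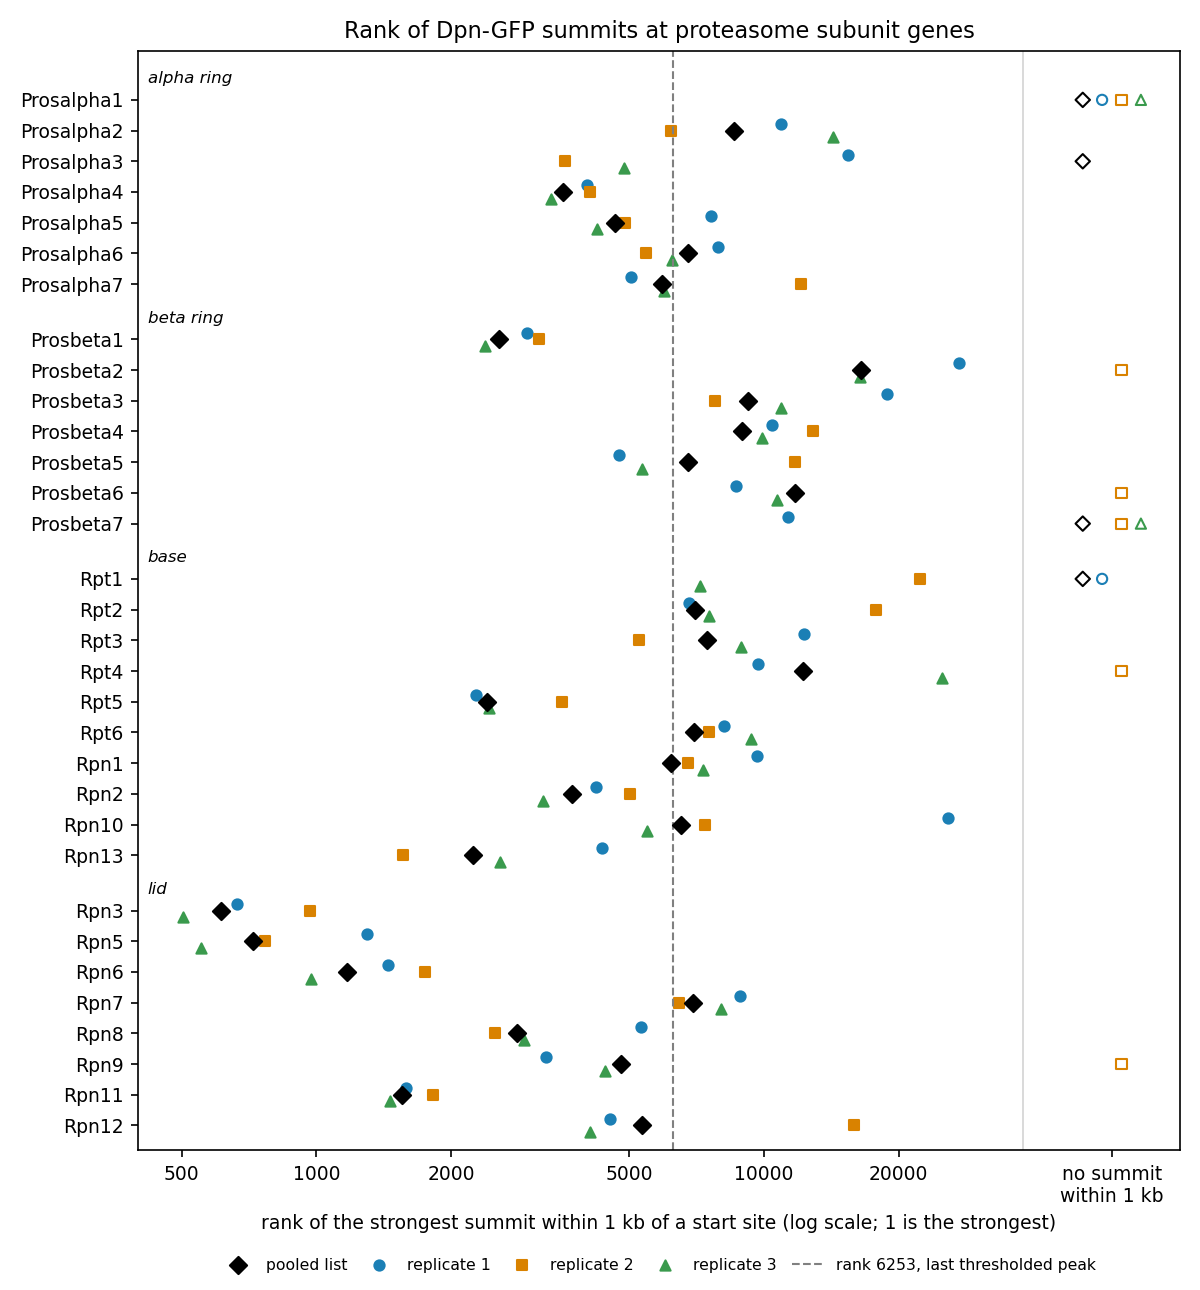
Rank of the strongest summit within 1 kb of a start site of each member, in the pooled list (diamonds) and in replicates 1, 2 and 3 (circles, squares, triangles), on a log scale. Open symbols at the right mark lists with no summit within 1 kb. Rpn3, Rpn5, Rpn6 and Rpn11 stand within the first 2000 peaks of all 4 lists, and most beta ring genes stand beyond rank 6253.

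The strongest summits of the lid lay at Rpn3 and Rpn5, structural subunits of the lid. The Rpn3 peak (dm6 chr2L:19051710-19051918) had a signal of 545.38, its summit lay 12 bp upstream of the start, and it ranked 665, 970 and 504 in replicates 1, 2 and 3. The Rpn5 peak (chr3R:5789027-5789341) had a signal of 507.32, its summit lay 227 bp upstream, and it ranked 1300, 766 and 553. All 3 replicates placed both genes far inside the first 6253 peaks, which is the size of the thresholded set and the depth used here to compare lists. Rpn11 encodes the enzyme that cuts ubiquitin chains off the substrate. Its stronger peak (chr2L:5059882-5059986, signal 337.3) had its summit 162 bp upstream and ranked 1585, 1825 and 1462. A weaker one (178.28) had its summit 362 bp upstream. Rpn11, Rpn5 and Prosalpha4 were the 3 members with 2 thresholded summits (9.38%, beside 5.77% of all genes with 2 or more). Each of those pairs of peaks lay so close together that in at least 1 replicate a single peak overlapped both.

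Sequences are shown for 6 members, those with the highest signal among the members on arms 2L, 3L, 3R and X. They are shown for the letters at the summits. Like all 18 member windows, they hold neither CACGTG nor CACGCG. These are the E-box forms known for repressors of the HES class, to which Dpn belongs. The sequences were read from the Release 6 genome (dm6) on the strand of the member, 5′ to 3′. They cover 50 bp on either side of the summit, less any base in an annotated exon. Capitals mark the words CGATA, TATCGATA and ACACTG on either strand, and lines without capitals hold none of them. Of the members with 2 summits, the weaker one is shown for Rpn11 alone, which holds all of these words. The weaker windows of Rpn5 and Prosalpha4, left out here, hold none. The TATCGATA near the Rpt5 summit is cut at the left end of its line by an exon of RanBP3.
Rpn3 summit, chr2L:19051728-19051789, + strand: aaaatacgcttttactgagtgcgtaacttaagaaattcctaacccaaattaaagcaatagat
Rpn5 stronger summit, chr3R:5789216-5789316, + strand: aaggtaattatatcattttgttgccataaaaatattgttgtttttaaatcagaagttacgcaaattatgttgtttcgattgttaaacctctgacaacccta
Rpn11 stronger summit, chr2L:5059902-5060002, − strand: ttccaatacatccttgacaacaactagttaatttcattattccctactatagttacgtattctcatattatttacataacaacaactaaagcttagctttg
Rpn11 weaker summit, chr2L:5060102-5060202, − strand: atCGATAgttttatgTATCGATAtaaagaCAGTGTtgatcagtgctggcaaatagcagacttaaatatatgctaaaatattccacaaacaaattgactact
Rpt5 summit, chr3R:23752835-23752875, + strand: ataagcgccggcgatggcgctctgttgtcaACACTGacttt
Prosalpha4 stronger summit, chrX:16275918-16276008, + strand: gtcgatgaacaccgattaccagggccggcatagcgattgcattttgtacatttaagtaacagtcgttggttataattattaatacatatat
Rpn2 summit, chr3R:29153453-29153523, + strand: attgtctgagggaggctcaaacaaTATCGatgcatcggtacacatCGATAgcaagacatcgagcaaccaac

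Of the other lid genes, Rpn6, a lid scaffold subunit, stood between Rpn5 and Rpn11 in pooled rank. It had a signal of 393.89 (chr2R:14752286-14752416) and ranked 1445, 1745 and 974 in replicates 1, 2 and 3. Its summit lay 103 bp upstream of the inner of 2 annotated start sites, in an intron of Rpn6. Rpn8, the partner of Rpn11, had 228.23 (chr2R:24402565-24402984) and ranked 5307, 2509 and 2909. Its summit lay 230 bp upstream of the inner of 2 annotated start sites, inside an intron of the longer transcript. Rpn9 had 153.5 (chr3R:23732973-23733392), with ranks of 3254 in replicate 1 and 4414 in replicate 3, and no summit within 1 kb in replicate 2. The Rpn9 summit lay 172 bp upstream of the inner of 2 annotated start sites, in an intron of Rpn9. Rpn12 had 139.71 at 104 bp upstream (chr3L:16582714-16583133) and ranked 4538 in replicate 1 and 4093 in replicate 3. No replicate 2 peak overlapped this peak. The best replicate 2 summit within 1 kb, at rank 15888, lay 375 bp downstream of the start. For Rpn9 and Rpn12 the support thus came from replicates 1 and 3. Rpn7 was the lid gene without a thresholded summit, with its best pooled summit at rank 6953.

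In the base, the summit of highest rank belonged to Rpn13, a ubiquitin receptor. It had a signal of 269.22 at 29 bp upstream (chr2R:13960223-13960642) and ranked 4337, 1561 and 2576 in replicates 1, 2 and 3. Rpt5, the only ATPase gene with a thresholded summit, had 254.79 at 12 bp upstream (chr3R:23752768-23752931) and ranked 2273, 3539 and 2428. Rpn2, a large scaffold subunit, had 185.25 at 21 bp upstream (chr3R:29153293-29153712) and ranked 4218, 5013 and 3206. All 3 replicates placed these genes inside their first 6253 peaks. Rpn1, the other large scaffold, had the weakest summit of any member, 123.41 at pooled rank 6195 (chr3L:19914737-19915156), against a lowest value of 122 in the set. It ranked 9672, 6777 and 7301, so no replicate held it at that depth.

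Rpn10, a further ubiquitin receptor, lay just outside, with a pooled signal of 118.0 at rank 6524. Its ranks spread widely over the replicates, with 25824, 7399 and 5484. Rpt6 (rank 6992), Rpt2 (7032) and Rpt3 (7477) lay in the same band. Rpt4 came later, at 12255. Rpt1 had no pooled summit within 1 kb, although replicate 3 listed one at rank 7196 and replicate 2 one at 22301.

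In the core particle, the summit of highest rank belonged to Prosbeta1, which encodes the caspase-like catalytic subunit. It had a signal of 244.07 at 91 bp upstream (chr2R:16014668-16015087) and ranked 2961, 3136 and 2386 in replicates 1, 2 and 3. The genes of the other catalytic subunits had none past the threshold. Prosbeta5, the chymotrypsin-like subunit, had its best pooled summit at rank 6770 and ranked 4736, 11715 and 5330. Prosbeta2, the trypsin-like subunit, had its best at 16491, and replicate 2 listed none. Of the beta subunits that do not cut, Prosbeta4 (pooled rank 8934), Prosbeta3 (9200) and Prosbeta6 (11745) followed. Prosbeta7 had a summit within 1 kb in replicate 1 alone, at rank 11306.

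Among alpha ring genes, Prosalpha4 had a signal of 192.14 at 312 bp upstream (chrX:16275748-16276167) and ranked 4024, 4093 and 3341 in replicates 1, 2 and 3. Prosalpha5 had 157.2 at 61 bp upstream (chr2R:17412496-17412915) and ranked 7607, 4882 and 4233. Prosalpha7 had 128.49 at 14 bp upstream (chr2R:9847640-9848059) and ranked 5042, 12079 and 5986. Prosalpha4 was therefore the alpha ring gene that all 3 replicates held at a depth of 6253 peaks. Prosalpha6 (pooled rank 6762) and Prosalpha2 (8554) lay below the threshold. Prosalpha3 had no pooled summit within 1 kb, yet it ranked 3590 in replicate 2, 4876 in replicate 3 and 15418 in replicate 1. Prosalpha1 had none in any list, and the nearest thresholded summit lay 3288 bp from its start. Of the 14 core particle genes, 4 had a thresholded summit. With 1 replicate left out, some had a summit among the first 6253 peaks of both others. These were 5 genes without replicate 1 (26.1% of all genes), 4 without replicate 2 (26.7%) and 2 without replicate 3 (24.3%).

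The share of member peaks held by all 3 replicates was close to that of the set as a whole. The 15 genes had 18 thresholded peaks, and 13 of them (72.2%) overlapped by at least 1 bp a peak among the first 6253 of every replicate. Over all 6253 thresholded peaks the share was 68.1%. Replicate 1 held 16 of the 18, replicate 2 held 14 and replicate 3 held 17. Of all 6253 thresholded peaks they held 5083, 5376 and 5772. Replicate 2 thus held the fewest member peaks, while replicate 1 held the fewest of the whole set. With 2 times as many peaks per replicate, 16 of 18 (88.9%) were held by all 3, beside 93.2% of the set. Of the 15 genes, 10 stood lowest in replicate 2, among them Rpn9, which had no summit within 1 kb there, and 5 had their deepest rank in replicate 1. No such count over all genes is given here. The list of replicate 2 was also the shortest, with 22475 peaks against 30000 in each of the other lists. Its length does not enter the counts among the first 6253 peaks. The pooled list was called on these same replicates and shares their reads. By signal, the 15 genes had a median of 228 for the strongest summit, with a range of 123.41 to 545.38, beside a median of 248 for the 4369 genes with a summit.

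All 18 member summits lay upstream of the member start nearest to them. At Rpn6, Rpn8 and Rpn9 that start was the inner of 2, and the summit lay inside the gene, in an intron. The strongest summit of each of the 15 genes lay 12 to 312 bp upstream, with a median distance of 103 bp. Over all 4369 genes with a summit, 86.2% had the strongest one upstream, 84.8% had it within 500 bp, and the median distance was 156 bp. Of the 18 summits, 13 lay in intergenic sequence and 5 in an intron, of a member or of a neighbour. No share over all summits is given here for these classes, so they cannot be called particular to members.

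**Figure D3:**
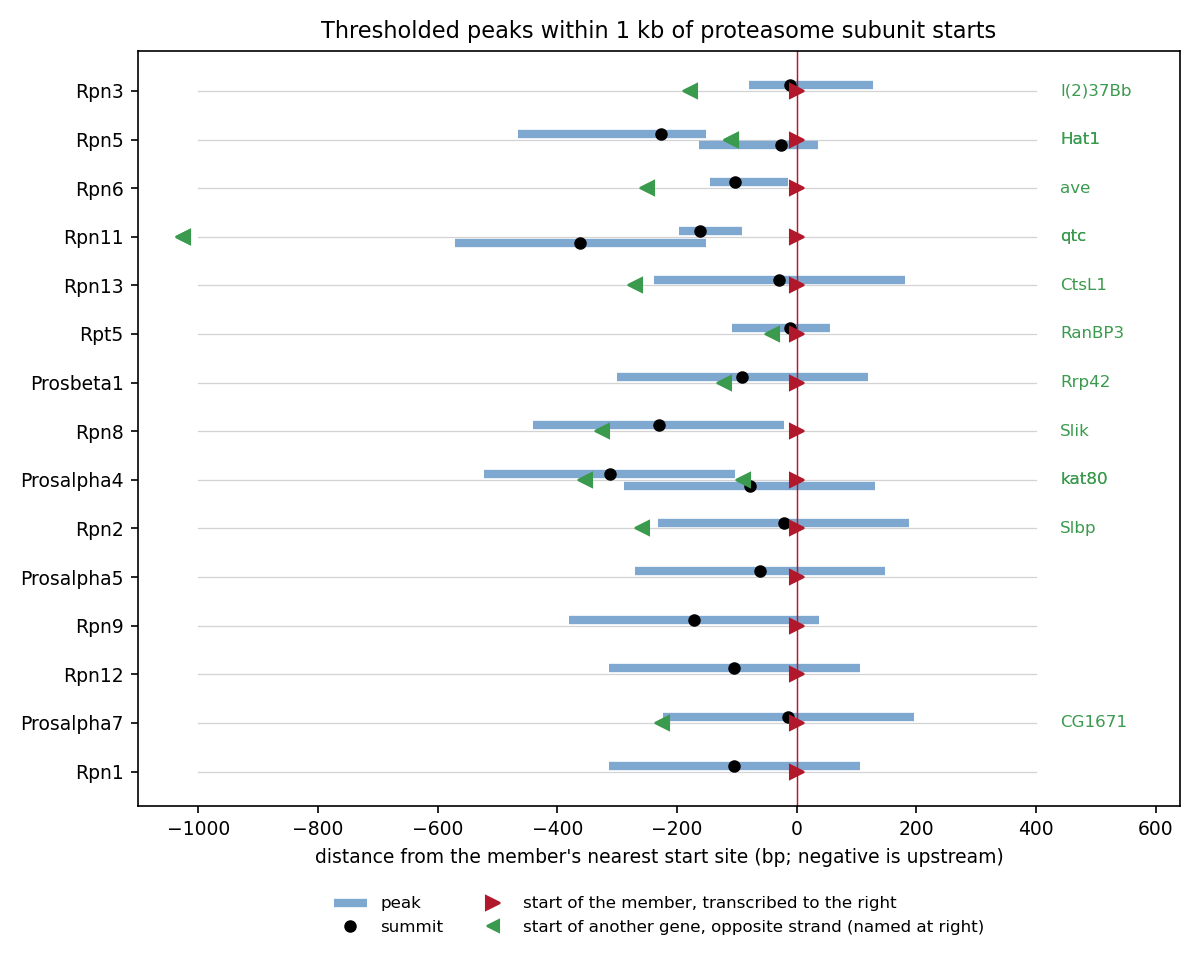
Thresholded peaks (bars) and their summits (dots) around the start of each of the 15 members with one, in bp from the nearest start of the member, negative upstream, ordered by rank of the strongest summit. Green arrowheads mark the opposite-strand starts of neighbouring protein-coding genes within 1 kb of a summit, drawn at 11 members for the genes named at the right. All summits lie left of the red line at 0.

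Most members had a start of another gene on the opposite strand close by, counted on either side of any of their start sites. A protein-coding start on the opposite strand lay within 1 kb of the start of 22 members (68.8%), beside 36.9% of all genes. Among genes with a thresholded summit, this held for 11 of 15 members, beside 2723 of 4369 genes in all. At 12 of the 15 members with a thresholded summit, such a start lay within 1 kb of the summit itself. At 5 of the 12 the strongest summit was nearer to the neighbour. No share over all genes is given here for these 2 counts. The 5 included Prosalpha4 with kat80, a katanin subunit gene, and Prosbeta1 with Rrp42, an exosome subunit gene. Also among them were Rpn5 with Hat1, a histone acetyltransferase gene, and Rpn8 with the kinase gene Slik. The starts of Rpt5 and RanBP3 lay 42 bp apart. Those of Prosalpha7 and CG1671, Rpn2 and the histone mRNA-binding gene Slbp, Rpn13 and CtsL1, Rpn3 and l(2)37Bb, and Rpn6 and ave lay 178 to 271 bp apart. The start of qtc lay 1025 bp from that of Rpn11. A summit at such a place cannot be assigned to the member or its neighbour by position. When each summit was given to its nearest start alone, 11 members (34.4%) kept one, beside 29.1% of all genes.

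Among genes with an opposite-strand start within 1 kb, members and genes at large had similar shares. Of the 22 members with an opposite-strand start within 1 kb, 11 had a thresholded summit, beside 53.0% of 5141 such genes in all. Of the 10 members without one, 4 had a summit, beside 18.7% of 8804 such genes. These 4 were Prosalpha5, Rpn1, Rpn11 and Rpn12. With peaks held by all 3 replicates, Rpn11 alone of these 4 kept a summit, and Prosalpha7 and Rpn9 were lost from the 11. In the lid, 5 of 6 genes with an opposite-strand start had a summit, and 2 of 2 without, Rpn11 and Rpn12. The start of qtc lay 1025 bp from that of Rpn11, just past the limit, but within 1 kb of both Rpn11 summits. No replicate 2 peak overlapped the Rpn12 peak. The split by opposite-strand start was made after the values were seen, and no test was made of any of these differences.

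The word TATCGATA, which the promoter factor Dref is known to bind, was frequent at member starts. It lay within 50 bp of 4 of the 18 member summits (22.2%), beside 2.46% of all 6253 summits. These were the summits of Rpt5, Prosalpha5 and Prosbeta1 and the weaker summit of Rpn11. In promoter windows, from 250 bases before to 50 after the outermost start, 12 of 32 members (37.5%) had it, beside 9.37% of all genes. With the word in that window, 7 of 12 members (58.3%) and 50.8% of 1306 genes had a thresholded summit. The summit was counted within 1 kb of any start site, which need not be the outermost one. Without the word, the share was 8 of 20 members and 29.3% of 12639 genes. Over all summits the word was rarest among the strongest peaks, at 1.04% of the first 1250 summits and 3.28% of the last 1251.

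Promoter copies of the word are shown for members with and without a thresholded summit, to show what the neighbourhood of the word shares. This set was chosen after the matches were seen. Each line is on the strand of the member, 5′ to 3′, with TATCGATA in capitals and its distance from the start, negative upstream. The label summit means that the member had a thresholded summit within 1 kb. The copies of Rpn3 and Rpn12 did not lie within 50 bp of that summit.
Rpn3, chr2L:19051583-19051610, word at −197 bp, summit: gttatcggagTATCGATAtcgaaaaggc
Rpn12, chr3L:16582802-16582829, word at −216 bp, summit: tgttaaaataTATCGATAttaaagcaca
Rpt5, chr3R:23752820-23752847, word at −46 bp, summit: tcgctgtcacTATCGATAagcgccggcg
Rpn7, chr3R:22462034-22462061, word at 3 bp, no thresholded summit: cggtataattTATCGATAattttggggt
Prosalpha6, chr2L:10221325-10221352, word at −16 bp, no thresholded summit: ccgaatccctTATCGATAcccgatacac
Prosbeta2, chr3L:14999931-14999958, word at −10 bp, no thresholded summit: catgaatataTATCGATAcaatatcgat
Prosbeta6, chr3L:16610445-16610472, word at −44 bp, no thresholded summit: tatgtataccTATCGATAacgtttaagc

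These copies are a selection, and over all 12 members with the word 7 had a thresholded summit and 5 had none. CGATA, which is part of TATCGATA and also known as a binding core of the boundary factor BEAF-32, lay within 50 bp of 10 of the 18 member summits (55.6%), beside 18.4% of all, and in 27 of 32 member promoters (84.4%), beside 47.5%. ACACTG was in 12 member promoters (37.5%), beside 18.9%. The core promoter motif GGTCACACT, which ends in the letters ACACT that begin ACACTG, was in 5 (15.6%, beside 6.05%).

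The E-box forms were not found at members. Neither CACGTG nor CACGCG lay within 50 bp of any of the 18 summits, which allows a share of up to 16.7% for each, beside 0.8% and 1.18% of all summits. Neither was in any of the 32 member promoters, which allows up to 9.38%, beside 4.24% and 6.17% of all promoters. With shares this low in all summits and promoters, a count of 0 cannot be told apart from them. The N-box CACNAG lay at 5 of 18 summits (27.8%, beside 10.3%) and in 10 of 32 promoters (31.2%, beside 29.8%). Within 100 bp it still lay at 5 summits, beside 20.0% of all. TGACNNNGC, the core of the antioxidant response element that Cnc and maf-S are known to bind, was at none of the 18 summits, beside 2.19% of all, and in the promoters of Prosalpha2, Prosbeta3, Rpt6, Rpn1 and Rpn7 (15.6%, beside 8.64%). Of these, Rpn1 alone had a thresholded summit. GAGAG, a word known for the GAGA factor, was at 1 of 18 summits (5.56%, beside 9.18%) and in 3 of 32 promoters (9.38%, beside 29.8%). GGTCACACT, CAGGTAG and TAGCTA were at none of the 18 summits, beside 1.04%, 0.336% and 3.52% of all. ACACTG was at 3 (16.7%, beside 8.65%) and CAGCTG at 2 (11.1%, beside 3.93%). In promoters, CAGCTG was in 1 of 32 (3.12%, beside 17.7%), and CAGGTAG and TAGCTA in 1 each, beside 1.64% and 7.4%. The windows of 50 bp on either side of member summits had a median GC content of 36.6%, with a range of 20.8 to 46.5%, beside a median of 33.7% for all summits. Base composition moves with the share of such words, and its part was not tested. All 12 words were sought on both strands, and a match is a description of the letters and not of a bound site.

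Other genes of the pathway gave a mixed picture. The fly has further copies of subunit genes with T or R after the number, several of which are known from the testis. None of these 16 paralogues had a thresholded summit within 1 kb, which allows a share of up to 18.8%, and 1 had a pooled summit, Prosbeta2R2 at rank 17060. An opposite-strand start lay within 1 kb of 4 of the 16 (25.0%). All 6 listed regulators had a thresholded summit. They were the ubiquitin ligase cofactor gene Hrd3 (signal 1300.38, rank 95), Keap1, which encodes the inhibitor of Cnc (735.49), cnc itself (349.1), the deglycosylase gene Pngl (192.3), maf-S (165.78) and sip3 (124.8). The summits at cnc and maf-S lay 319 and 663 bp downstream of the nearest start, and that at Keap1 lay at −847 bp, upstream. With the stronger 50% of the thresholded peaks, 3 of the 6 had a summit, beside 18.8% of all genes.

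Among 11 assembly, activator and associated genes, 8 (72.7%) had a thresholded summit. The strongest was at Pomp, which encodes the proteasome maturation protein (499.38, with ranks of 580, 1048 and 694 in replicates 1, 2 and 3). Ufd1, Uch-L5, TER94, PI31, Usp14, Npl4 and rngo followed, at 128.35 to 254.46. REG, Sem1 and CG8858 had none. With 1 replicate left out, a summit among the first 6253 peaks of both others was present at 6 of the 11 genes without replicate 1 (26.1% of all genes), 4 without replicate 2 (26.7%) and 3 without replicate 3 (24.3%). Of 5 ubiquitin and E1 genes, Ubi-p63E, Uba1 and RpS27A had one. The COP9 signalosome is a complex built like the lid, and 3 of its 9 genes had one (33.3%): alien, also called CSN2 (681.29), CSN5 (294.4) and CSN3 (266.51). The background for the thresholded counts of these lists is the 31.3% of protein-coding genes given above, and no list was tested against it.

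**Figure D4:**
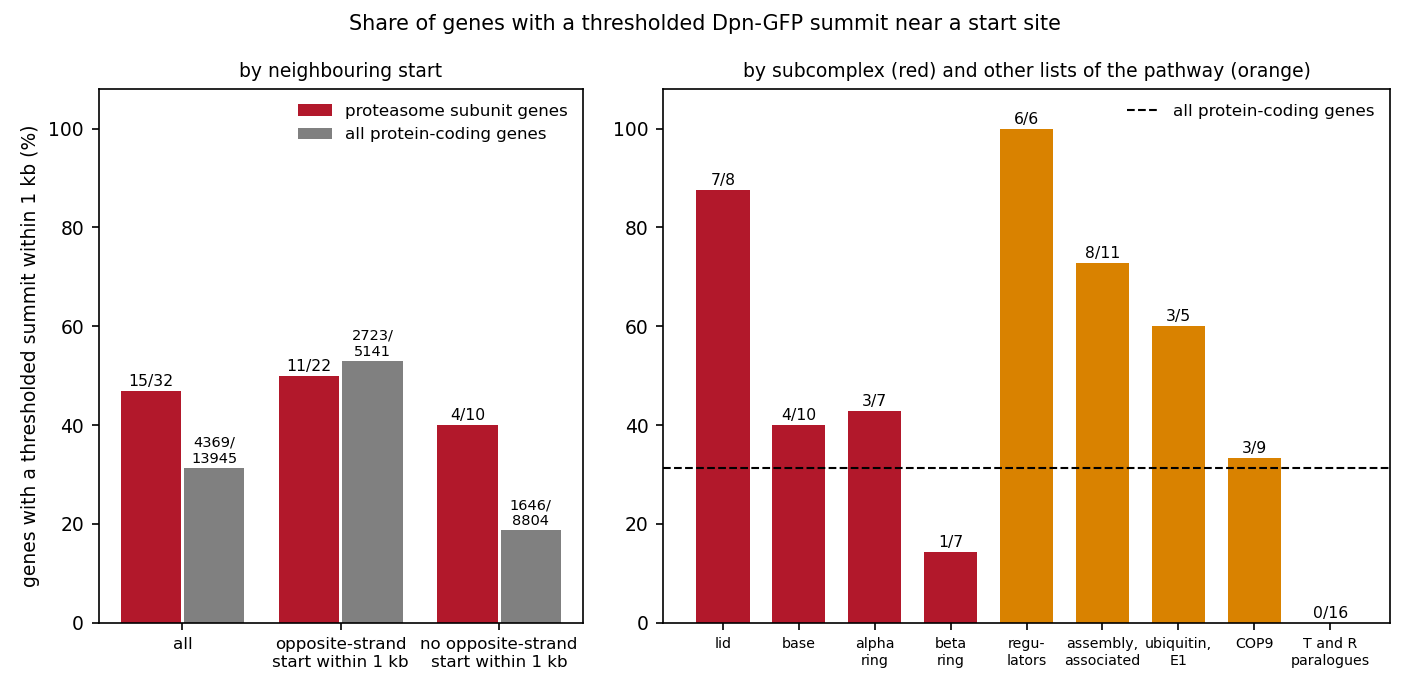
Share of genes (%) with a thresholded summit within 1 kb of a start site. On the left, proteasome subunit genes (red) and all protein-coding genes (grey) are split by whether an opposite-strand start lies within 1 kb. On the right, subcomplexes (red) and other lists of the pathway (orange) stand beside the 31.3% of all genes (dashed line). Counts are printed above the bars. The lid (7 of 8) and the regulators (6 of 6) stand highest and the paralogues are at 0 of 16.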

How the data were processed

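The deposited files were peak lists. On dm6 there were a relaxed list for each replicate, a relaxed list from all replicates together and a thresholded list that, per the deposited text listings, was derived from the other 4. The sources used here do not give the aligner, the peak caller, the reproducibility threshold or the read depth, so counting error could not be computed from reads. The peak signal is the authors' value, as deposited, of unstated scale, and only ranks peaks within a list. The −log10 q-value, as deposited by the authors, was the same for all 6253 thresholded peaks and was not used. Those peaks were the first 6253 of the pooled list. Files on dm3 were not used here.

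The summit is the deposited peak start plus its offset, given 1-based. Genes came from Ensembl release 115 (BDGP 6.54) and bases from RefSeq Release 6, which is dm6, with Python 3.11.15, numpy 2.4.6 and pandas 2.3.3. Start sites are those of all transcripts of a gene. Assignment, overlap and word matching were tested on simulated data. All members are named, and 1 neighbouring gene is not reported here. The members and lists were chosen with earlier results of these data known. CSN2 was matched as alien. With 1 group, no test between samples was made. The alternatives were other windows, start rules, thresholds, overlaps, rank depths, word windows and each replicate left out.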

Additional observations from a re-analysis of the deposited data

How the results depend on the processing

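The count of members with a summit depended most on the threshold. With the stronger 50% of the thresholded peaks it was 8 of 32 (25.0%), in place of 15, while the count over all genes was 2621 (18.8%), in place of 4369. The members lost were Prosalpha4, Prosalpha5, Prosalpha7, Rpn1, Rpn12, Rpn2 and Rpn9. This setting also left 1 core and 7 regulatory particle genes, 3 regulators, 3 assembly and associated genes and 1 ubiquitin or E1 gene. The other settings gave 10 to 16 members: 15 within 500 bp (27.7% of all genes), 16 within 2 kb (36.9%), 11 by the nearest start (29.1%), 14 with the outermost start (29.4%) and 10 with peaks held by all 3 replicates (22.8%). With each replicate left out in turn, requiring a summit among the first 6253 peaks of both others, it was 10 to 14, and 10 was the count without replicate 3. Over all genes it was 3384 to 3723 (24.3% to 26.7%). The core particle had 2 genes, in place of 4, by the nearest start, with peaks held by all 3 replicates and without replicate 3. It had 5 without replicate 1. The lid had 5 of 8 genes, in place of 7, by the nearest start and with peaks held by all 3 replicates. It also had 5 with the stronger 50% of the thresholded peaks, without replicate 1 and without replicate 3, and 6 with the outermost start. The assembly and associated genes fell to 3 of 11 with peaks held by all 3 replicates and without replicate 3, and to 4 without replicate 2. The COP9 signalosome had 1 gene by the nearest start, and the paralogues had 1 by that rule and within 2 kb. With word windows of 100 bp either side, GGTCACACT was at 1 member summit in place of 0 (2.25% of all summits in place of 1.04%), ACACTG at 5 in place of 3 (19.5% in place of 8.65%) and TATCGATA at 5 in place of 4 (5.2% in place of 2.46%). The count of member peaks held by the replicates was 13 to 16 with each replicate left out. No paired analysis was possible because there was 1 group.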

Other observations

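The word GTTACG was present at the summits of Rpn3 and Rpn5 and at the stronger summit of Rpn11, which are 3 of the 18 member windows (16.7%). It was chosen after the letters were seen. Among all 6253 summits 103 (1.65%) had it, and none of the 100 strongest did.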
